A study of Mus musculus with 12 samples.

Results

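Natural killer (NK) cells in which Id2 and Tcf7 had been deleted together (group DKO) were compared with NK cells that kept both genes (group Ctrl). The comparison took every DKO and every Ctrl column of the deposited expression table, 3 libraries in each group, 6 of the 12 libraries in the series. NK cells, innate lymphocytes that kill virus-infected and tumour cells, were bone marrow cells of C57Bl/6 mice sorted for surface NK1.1 and CD49b. DKO mice carried Ncr1Cre together with homozygous floxed Id2 and floxed Tcf7 alleles, written Ncr1Cre Id2F/F Tcf7F/F. Ctrl mice carried Id2F/F or Id2F/F Tcf7F/F and no Cre, and the labels do not say which control library had which of these genotypes. Floxed Id2 was therefore common to both groups, and each difference between them also includes the presence of Cre. The 2 single deletions, Ncr1Cre Id2F/F (group Id2KO) and Ncr1Cre Tcf7F/F (group Tcf1KO), had 3 libraries each and are used below only to show where DKO differed from them. Ncr1Cre is driven by Ncr1, which encodes the activating receptor NKp46, so recombination takes place once a cell has begun to express that gene. The labels describe the replicates as independent, without stating that they are separate mice, so p-values measure the spread between these libraries. Ages were not given in the sources used here.

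ID2 is a helix-loop-helix protein that cannot bind DNA. It pairs with the E proteins (E2A, HEB and E2-2, encoded by Tcf3, Tcf12 and Tcf4) and keeps them off the E-box motif, and ID3 does the same. TCF-1, the product of Tcf7, is a DNA-binding partner of beta-catenin that is abundant in early lymphoid progenitors, T cells and immature NK cells and declines as NK cells mature. Maturing NK cells in the bone marrow gain KLRG1, CD11b and the sphingosine receptor S1P5, with which they leave for the blood, and they acquire Ly49 receptors for MHC class I.

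Expression is given in FPKM, a read count per unit of gene length and of sequencing depth, so levels can be compared between genes per length. Genes had to reach 1 FPKM in 3 or more of the 12 libraries, and the 12384 that did were tested with limma on log2(FPKM + 1), and a log2 change is the DKO mean minus the Ctrl mean on that scale. A gene is said to have risen or fallen when its adjusted p was under 0.05. The 6 libraries held between 13975523 and 16313811 reads assigned to genes, and mitochondrial ribosomal RNA took 25.6% to 30.9% of them. NK cell genes were high in all 6 libraries: Ncr1 lay between 62.4 and 204 FPKM, Klrb1c (NK1.1) between 52.5 and 85.5, Itga2 (CD49b) between 29.5 and 52.3 and Klrd1 between 78.7 and 139.5. DKO replicate 3 stood apart from the other 11 libraries on the first and second principal components, which held 19.6% and 13.7% of the variance. Its weight in a limma fit that weights libraries was 0.586, and Ctrl replicate 2 had 0.590, so results were also computed without each of these.

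The targeted genes were examined first. Id2 (chromosome 12, 25093799 to 25097140, minus strand, GRCm38) had 124, 163 and 170.0 FPKM in Ctrl and 48.8, 41.2 and 36.8 in DKO. No library of one group overlapped the other, and the DKO mean was 27.8% of the Ctrl mean. The log2 change was -1.82 (SE 0.16, adjusted p = 0.00269), and Id2 was the one gene called in each of the 12 fits that left out 1 library. Id2KO libraries lay lower still, at 17.8, 17.1 and 19.2 FPKM, and the DKO level was higher than theirs by 1.18 on the log2 scale (adjusted p = 0.0205). In bulk RNA, fewer cells that express a gene and less RNA per cell cannot be told apart, here or below. Tcf7 (chromosome 11, 52252371 to 52283014, minus strand) had 37.7, 38.6 and 46.5 FPKM in Ctrl and 53.9, 60.04 and 73.3 in DKO. Its 3 DKO values were above all Ctrl values, with a log2 change of 0.59 (SE 0.16, adjusted p = 0.226) that did not pass the threshold. Tcf1KO libraries had 29.6, 37.3 and 38.0 FPKM, which overlapped the Ctrl range. A gene total adds reads from undeleted exons to those of the deleted part, so the Tcf7 values check neither the deletion nor the labels of these libraries.

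Against Ctrl, 18 of the 12384 tested genes changed in DKO (0.145%). Of these, 7 rose (0.0565%) and 11 fell (0.0888%). Those that fell were Id2, the maturation genes Klrg1 and S1pr5, the Ly49 receptor genes Klra4 and Klra14-ps, the growth factor gene Vegfc, the cell division genes Pbk and Kif22, the histone gene Hist2h3c2, Plxnc1 and Adamts14. Those that rose were Id3, Nsg2, Apobec2, Cables1, the T cell receptor gamma segment Tcrg-V3, the 5S ribosomal RNA gene n-R5s39 and the small nucleolar RNA gene Gm23613. For each of the 18 the 3 DKO values lay on one side of the 3 Ctrl values, which held for 778 tested genes with DKO higher (6.28%) and 900 with DKO lower (7.27%). Counts of list members that lay higher or lower in every DKO library are to be read beside these 2 shares. All 18 kept their direction in each of the 12 leave-one-out fits, but 5 were called in 6 or more of them. Without DKO replicate 3, Ctrl replicate 1 or Ctrl replicate 2 the single call was Id2, while 1169 genes had an unadjusted p under 0.05 in the fit of all libraries. With voom on reads recovered from the FPKM values, 13 genes were called, 7 of them among the 18. A limma fit of the 6 Ctrl and DKO libraries alone called 0 of the 18, although each had an unadjusted p under 0.05 there, and its 1 call lay outside them. A fit without Id2KO replicate 3, DKO replicate 3 and Ctrl replicate 2, the 3 libraries of lowest array weight, called 0 genes, with 1046 at an unadjusted p under 0.05.

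**Figure D1:**
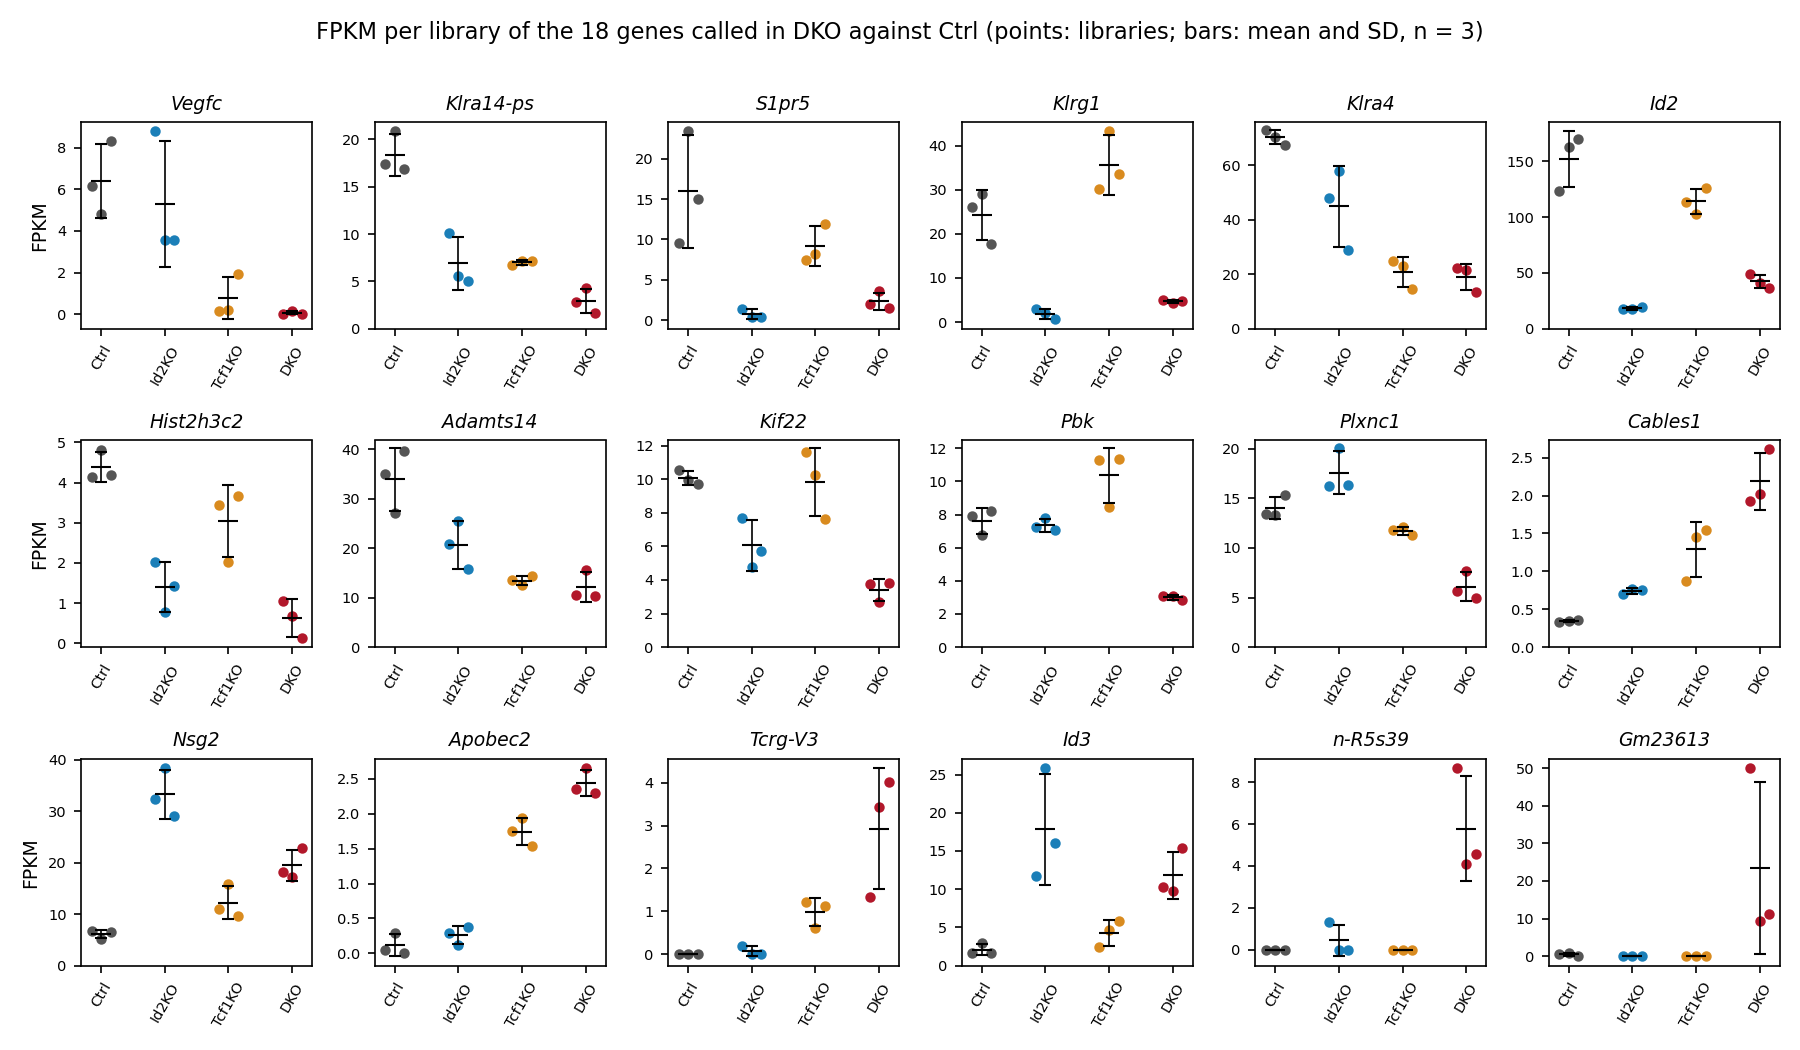
FPKM (y axis, linear, a separate scale for each panel) of the 18 genes that changed in DKO against Ctrl, in each of the 4 groups; points are libraries and bars the mean and SD of 3 libraries. The 3 DKO points lie on one side of the 3 Ctrl points in every panel, and for Id2, Klrg1 and S1pr5 the Id2KO points lie lowest.

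**Figure D2:**
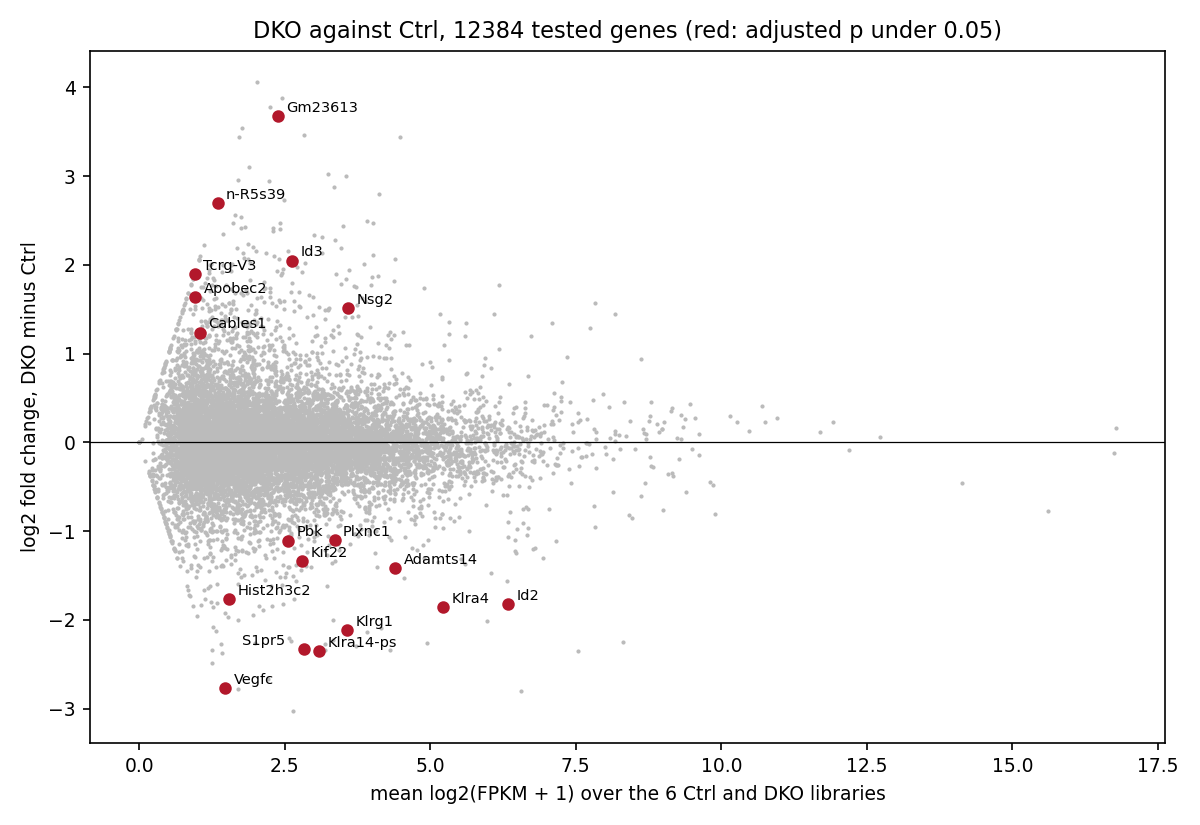
Log2 fold change of DKO over Ctrl (y axis) against the mean log2(FPKM + 1) of the 6 libraries (x axis) for the 12384 tested genes, with the 18 that changed in red and named. Id2 is the most abundant of the 18, and Apobec2, Cables1 and Tcrg-V3 lie near the low end of expression.

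E proteins bind E-boxes, of which the forms CAGCTG and also CAGGTG were searched, and TCF-1 binds motifs such as CTTTGA and also CTTTGT. Read from the opposite strand, CAGGTG becomes CACCTG, while CTTTGA becomes TCAAAG and CTTTGT becomes ACAAAG. The 300 bases from 250 before to 50 after the RefSeq start (GRCm38.p6) are shown for 3 genes that rose, Nsg2, Apobec2 and Id3, and for Itga1, an integrin gene described below. Each is written 5′ to 3′ on the gene's strand, with matches to these 4 motifs on either strand in capitals.
Nsg2 (chr11:32000169-32000468, plus strand): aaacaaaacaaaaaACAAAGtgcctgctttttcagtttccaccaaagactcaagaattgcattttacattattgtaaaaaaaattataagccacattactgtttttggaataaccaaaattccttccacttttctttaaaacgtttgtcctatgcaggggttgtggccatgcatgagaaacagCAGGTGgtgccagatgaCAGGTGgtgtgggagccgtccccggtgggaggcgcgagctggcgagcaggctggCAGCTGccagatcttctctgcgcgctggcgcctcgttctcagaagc
Apobec2 (chr17:48432679-48432978, minus strand): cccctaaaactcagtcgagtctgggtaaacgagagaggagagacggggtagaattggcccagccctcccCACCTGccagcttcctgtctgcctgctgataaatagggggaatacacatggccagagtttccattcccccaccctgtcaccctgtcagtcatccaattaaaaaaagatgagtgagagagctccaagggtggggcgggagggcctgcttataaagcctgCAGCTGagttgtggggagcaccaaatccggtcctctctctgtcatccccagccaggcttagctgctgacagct
Id3 (chr4:136143572-136143871, plus strand): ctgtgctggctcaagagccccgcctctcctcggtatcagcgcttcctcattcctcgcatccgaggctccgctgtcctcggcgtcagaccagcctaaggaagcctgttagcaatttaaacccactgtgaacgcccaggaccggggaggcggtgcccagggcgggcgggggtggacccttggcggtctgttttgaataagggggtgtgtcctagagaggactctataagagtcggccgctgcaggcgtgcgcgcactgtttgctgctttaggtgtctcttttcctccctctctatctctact
Itga1 (chr13:115101915-115102214, minus strand): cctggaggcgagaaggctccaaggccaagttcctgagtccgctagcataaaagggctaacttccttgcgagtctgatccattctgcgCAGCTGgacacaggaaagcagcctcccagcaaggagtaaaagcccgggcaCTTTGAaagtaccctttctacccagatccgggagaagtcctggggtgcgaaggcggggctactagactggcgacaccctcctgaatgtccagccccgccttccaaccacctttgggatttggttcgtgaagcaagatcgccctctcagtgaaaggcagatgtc
Counting to the first base of each match on the gene's strand, the Nsg2 window holds CAGGTG 67 and 50 bases before the start, CAGCTG 4 bases after it and ACAAAG 236 bases before it. The Apobec2 window holds CACCTG 181 and CAGCTG 23 bases before the start, and the Itga1 window CAGCTG 163 and CTTTGA 113 bases before it. The Id3 window has none of these letters, and neither has a second Nsg2 window (chr11:32000450-32000749), which is not shown. Changed genes whose windows were not scanned, Cables1 among them, do not enter the shares of changed genes given next. RefSeq windows were scanned for 10 of the 18 changed genes, 11 windows in all since Nsg2 has 2. Of these, 3 (27.3%) held an E-box of either kind and 1 (9.09%) a TCF motif of either kind, against 32.9% and 31.2% of the 32851 windows in the table. A match is a description of the sequence and does not show binding.

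Among genes of mature NK cells, Klrg1 and S1pr5 fell in DKO. Klrg1 (chromosome 6, 122270596 to 122282882, minus strand), an inhibitory receptor that marks the last maturation stage, had 26.1, 28.9 and 17.8 FPKM in Ctrl and 5.05, 4.43 and 4.71 in DKO. The DKO values were close together, and all were below the lowest Ctrl value. The log2 change was -2.11 (SE 0.29, adjusted p = 0.0298). S1pr5 (chromosome 9, 21242912 to 21248443, minus strand), the receptor through which mature NK cells leave the marrow, had 9.50, 23.4 and 15.03 FPKM in Ctrl and 1.95, 3.55 and 1.43 in DKO and a log2 change of -2.33 (SE 0.36, adjusted p = 0.0424). The Ctrl libraries spread more widely for S1pr5 than for Klrg1, and S1pr5 was called in 2 of the 12 leave-one-out fits and Klrg1 in 4. Of 27 tested mature NK markers of 28 listed, these 2 fell and none rose. The 3 DKO values were below all Ctrl values for 15 of them and above for 1, Ly6c2. The median log2 change of the list was -0.48, against -0.01 over all tested genes, and -0.43 without DKO replicate 3. Among members that did not pass the test, Itgam (CD11b) had 9.69, 8.77 and 8.76 FPKM in Ctrl and 4.29, 4.93 and 4.14 in DKO, with an adjusted p of 0.122. Cma1, a chymase gene also made by mast cells, had 13.4, 29.6 and 18.4 FPKM in Ctrl and 4.23, 3.77 and 1.63 in DKO (adjusted p = 0.0976). Prdm1, the gene of Blimp-1, a factor of terminal maturation, had 11.01, 5.52 and 8.68 FPKM in Ctrl and 2.97, 4.19 and 4.22 in DKO (adjusted p = 0.281). Ly6c2 had 116, 195 and 111 FPKM in Ctrl and 315, 302 and 392 in DKO (adjusted p = 0.148). It was one of 8 members with a positive log2 change, against 19 with a negative one. Of 22 tested immature NK markers, none passed the test, 6 lay higher in every DKO library and 2 lower. Cxcr3, a chemokine receptor gene, had 52.0, 39.6 and 39.8 FPKM in Ctrl and 66.9, 97.7 and 92.8 in DKO (adjusted p = 0.0895). Kit, the stem cell factor receptor gene, had 3.30, 2.62 and 2.096 FPKM in Ctrl and 1.10, 0.898 and 1.02 in DKO (adjusted p = 0.223).

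Id3 and Nsg2, both listed among early lymphoid and memory factors, rose. Id3 (chromosome 4, 136143497 to 136145755, plus strand), the close relative of Id2, had 1.70, 2.93 and 1.66 FPKM in Ctrl and 10.3, 9.72 and 15.4 in DKO. The groups did not overlap, and the log2 change was 2.05 (SE 0.33, adjusted p = 0.0468). Nsg2 (chromosome 11, 32000463 to 32059202, plus strand), best known as a neuronal vesicle protein, had 6.80, 5.22 and 6.47 FPKM in Ctrl and 18.3, 17.3 and 22.9 in DKO. The DKO mean was 3.16 times the Ctrl mean, with a log2 change of 1.51 (SE 0.20, adjusted p = 0.0291), and the call was kept in 7 of the 12 leave-one-out fits, against 2 for Id3. Of the Id and E protein genes other than Id2 and Id3, none passed the test. Tcf12 had 10.04, 9.75 and 12.1 FPKM in Ctrl and 12.3, 12.5 and 14.2 in DKO and lay higher in DKO, while Tcf3 had 2.64, 2.84 and 2.33 FPKM in Ctrl and 1.73, 2.23 and 1.82 in DKO and lay lower, with adjusted p of 0.574 and 0.618. Tcf4 had 1.59, 1.13 and 1.87 FPKM in Ctrl and 0.791, 0.655 and 1.01 in DKO (adjusted p = 0.511), and Id4 was below the filter, at 0 in the 3 Ctrl libraries and at 0, 0.0382 and 0.0845 FPKM in DKO. Of 22 tested early lymphoid and memory factors, Id3 and Nsg2 were the called members, 7 lay higher in every DKO library and 1 lower.

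Over 18 tested genes listed as targets of E proteins, the median log2 change was 0.23. It was 0.16 without DKO replicate 3, 0.19 without Ctrl replicate 1 and 0.21 without Ctrl replicate 2. Without DKO replicate 1 it was 0.25, without DKO replicate 2 0.47 and without Ctrl replicate 3 0.52. Of these genes Id3 alone was called, 5 lay higher in every DKO library and none lay lower in all 3. The 5 were Id3, Tcf7, Cd3e, Cxcr5 and Bcl11b. Tcf7 was itself targeted in DKO, and its total includes reads from undeleted exons, so its place in this count is uncertain. Cxcr5, the receptor that guides lymphocytes to B cell follicles, had 0.519, 0.602 and 1.81 FPKM in Ctrl and 5.98, 2.54 and 4.16 in DKO and a log2 change of 1.41 (SE 0.31, adjusted p = 0.135). Bcl11b, a T lineage transcription factor gene, had 0.949, 2.101 and 0.956 FPKM in Ctrl and 3.52, 2.46 and 7.83 in DKO (adjusted p = 0.324), with the highest value in DKO replicate 3. Of 17 tested partners and targets of TCF-1, none was called, and the list median was 0.12. That median was -0.057 without Ctrl replicate 2, 0.061 without DKO replicate 2 and 0.065 without DKO replicate 3. It was 0.10 without Ctrl replicate 1, 0.13 without DKO replicate 1 and 0.15 without Ctrl replicate 3. Axin2, a standard readout of beta-catenin with TCF factors, had 0.482, 0.920 and 1.67 FPKM in Ctrl and 1.54, 1.37 and 1.46 in DKO, and the groups overlapped. Tle4, a corepressor that binds TCF factors, had 10.1, 8.43 and 13.1 FPKM in Ctrl and 15.2, 14.97 and 17.8 in DKO (adjusted p = 0.309). Cox6a2, a respiratory chain subunit gene listed with plasmacytoid dendritic cells, had 12.5, 4.02 and 7.55 FPKM in Ctrl and 28.5, 39.3 and 22.6 in DKO (adjusted p = 0.125). Of 6 tested markers of plasmacytoid dendritic cells, 1, Cox6a2, had a positive log2 change and 5 a negative one. None was called, 3 lay lower in every DKO library, and the list median was -0.46. Siglech, a defining gene of those cells, was at 0.577, 0.247 and 0.253 FPKM in Ctrl and 0.0181, 0 and 0.0333 in DKO.

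Of the Ly49 receptor genes, Klra14-ps and Klra4 fell. These receptors bind MHC class I or viral ligands, and their genes form a cluster of near-identical copies on chromosome 6, so reads may have been divided between them and single members are uncertain. Klra14-ps (chromosome 6, 130148799 to 130162569, minus strand), a pseudogene, had 17.4, 20.9 and 16.8 FPKM in Ctrl and 2.80, 4.29 and 1.68 in DKO, with a log2 change of -2.35 (SE 0.27, adjusted p = 0.0229). Klra4 (chromosome 6, 130043731 to 130067271, minus strand), which encodes the activating receptor Ly49D, had 72.8, 70.5 and 67.6 FPKM in Ctrl and 22.2, 21.5 and 13.6 in DKO, and the DKO mean was 27.2% of the Ctrl mean. Its log2 change was -1.86 (SE 0.28, adjusted p = 0.0416), called in 3 of the 12 leave-one-out fits, against 7 for Klra14-ps. Klra8, which encodes Ly49H, had 117, 152 and 109 FPKM in Ctrl and 25.9, 57.9 and 18.3 in DKO and just missed the threshold with an adjusted p of 0.0582. Of 12 tested Ly49 genes, 2 fell, none rose, 6 lay lower in every DKO library and 1 lay higher, with a list median of -0.75. Their summed level was 548, 521 and 437 FPKM in Ctrl and 223, 336 and 197 in DKO, without overlap. It was 292, 344 and 243 FPKM in Tcf1KO and 426, 412 and 297 in Id2KO, and both overlapped the DKO range. Of 15 tested NKR-P1 and NKG2 genes, none was called and 14 had a negative log2 change. Klri2, a lectin-like receptor gene of NK cells, had 143, 158 and 191 FPKM in Ctrl and 63.2, 81.9 and 67.6 in DKO (adjusted p = 0.0504). Klrb1c, the sorting marker NK1.1, had 68.6, 83.4 and 85.5 FPKM in Ctrl and 52.5, 71.3 and 56.9 in DKO (adjusted p = 0.486), and its groups overlapped.

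Ncr1, whose promoter drives the Cre, had 203, 168 and 204 FPKM in Ctrl and 62.4, 99.1 and 72.9 in DKO. The groups did not overlap, and the log2 change was -1.30 (SE 0.22, adjusted p = 0.0567). Tyrobp, the gene of the adaptor DAP12 that carries the signal of activating Ly49 receptors, had 1041, 1409 and 1352 FPKM in Ctrl and 778, 864 and 546 in DKO (adjusted p = 0.261). Among 29 tested activating receptors and adaptors none was called, 6 lay higher in every DKO library and 3 lower. Plcg1 and Plcg2, which encode 2 forms of phospholipase C gamma, lay in opposite directions. Plcg1, the main form in T cells, had 0.677, 0.893 and 0.478 FPKM in Ctrl and 1.74, 1.63 and 3.29 in DKO (adjusted p = 0.246), and Plcg2 had 14.5, 18.9 and 21.2 FPKM in Ctrl and 10.99, 11.7 and 8.78 in DKO (adjusted p = 0.270). Of 22 tested cytotoxic effectors, none was called and 8 lay lower in every DKO library. Prf1, the gene of the pore-forming protein perforin, had 66.2, 68.6 and 79.1 FPKM in Ctrl and 31.2, 58.2 and 23.8 in DKO (adjusted p = 0.224), with DKO replicate 2 highest in its group.

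Group 1 innate lymphoid cells (ILC1), tissue-resident relatives of NK cells, are recognised by the integrin chain CD49a, the product of Itga1. Itga1 (chromosome 13, 114953096 to 115101964, minus strand) had 2.77, 2.67 and 1.48 FPKM in Ctrl and 7.30, 5.41 and 8.65 in DKO, so every DKO library was above every Ctrl library. The log2 change was 1.30 (SE 0.21, adjusted p = 0.0504), just short of the threshold, and voom on recovered reads called it. Of 21 tested genes listed as ILC1 features, none was called, 10 lay higher in every DKO library and 3 lower. The list median was 0.95, 0.67 without DKO replicate 3 and 0.70 without Ctrl replicate 2. Set against the single deletions, the median log2 difference of DKO was 0.64 from Id2KO and 0.07 from Tcf1KO. Tnfsf10, the gene of the death ligand TRAIL, had 8.81, 10.2 and 10.2 FPKM in Ctrl and 15.7, 19.3 and 26.1 in DKO (adjusted p = 0.201). Zfp683, which encodes the tissue-residency factor Hobit, had 6.17, 2.87 and 6.33 FPKM in Ctrl and 13.3, 10.7 and 8.77 in DKO (adjusted p = 0.299), and Ikzf2, which encodes Helios, had 12.4, 12.6 and 12.2 FPKM in Ctrl and 23.4, 29.8 and 35.1 in DKO (adjusted p = 0.105). Il21r, the interleukin-21 receptor gene, had 5.99, 4.08 and 8.93 FPKM in Ctrl and 15.6, 17.3 and 20.9 in DKO (adjusted p = 0.0976). Genes that separate NK cells from ILC1 lay lower but did not pass the test: Eomes, an NK lineage factor gene, had 45.4, 42.2 and 54.4 FPKM in Ctrl and 24.3, 25.6 and 27.1 in DKO (adjusted p = 0.109). Itga2, the gene of the sorting marker CD49b, had 52.3, 43.5 and 44.2 FPKM in Ctrl and 29.5, 33.7 and 34.4 in DKO (adjusted p = 0.432). Tbx21, which encodes T-bet and is used by both lineages, had 29.0, 24.0 and 31.3 FPKM in Ctrl and 16.9, 20.6 and 22.0 in DKO (adjusted p = 0.380). The list also holds Cd3e, a T cell gene.

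Genes of the T cell receptor and its CD3 complex had higher levels in DKO, but of these 1 receptor segment alone passed the test. Cd3e (chromosome 9, 44998740 to 45009627, minus strand) had 147, 139 and 111 FPKM in Ctrl and 351, 414 and 416 in DKO. The groups did not overlap, and the log2 change was 1.57 (SE 0.28, adjusted p = 0.0713), which did not pass the threshold but did with voom. Trac, the constant gene of the alpha chain, had 141, 194 and 190.0 FPKM in Ctrl and 447, 483 and 499 in DKO (adjusted p = 0.0713), and it too was called with voom. Cd3g had 23.1, 40.1 and 32.4 FPKM in Ctrl and 65.4, 69.5 and 84.8 in DKO (adjusted p = 0.0713), and Cd3d had 29.8, 28.0 and 26.6 FPKM in Ctrl and 56.6, 56.6 and 50.03 in DKO (adjusted p = 0.121). Of 23 tested genes of the receptor complex and its coreceptors, none was called, 12 lay higher in every DKO library and none lower in all 3. The list median was 0.50 and the summed level was 1392, 1463 and 1417 FPKM in Ctrl and 2300.1, 2449 and 2760.1 in DKO. Cd8a, a coreceptor gene of killer T cells, had 2.94, 3.54 and 1.86 FPKM in Ctrl and 13.8, 8.32 and 11.4 in DKO (adjusted p = 0.228), and Cd4 had 3.50, 2.60 and 1.36 FPKM in Ctrl and 3.70, 3.72 and 1.67 in DKO with overlapping groups. NK cells transcribe several CD3 genes themselves, and the share of these levels that came from T cells in the sort was not tested.

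Receptor gene segments were described beside the constant genes. Their totals do not show whether the reads came from rearranged transcripts, and short and similar segments make single values uncertain. Tcrg-V3 (chromosome 13, 19242845 to 19243301, plus strand), a variable segment of the gamma chain, was listed at 0 in all 3 Ctrl libraries and at 1.34, 3.44 and 4.01 FPKM in DKO, from 7, 19 and 20 reads. Against a floor of 3 reads in each Ctrl library the DKO mean was at least 5.27-fold higher, with an adjusted p of 0.0441. This floor covers counting error only. Tcrg-V3 would not have passed the filter on low values without the DKO libraries, so a difference was built into its passing. Tcrg-C1, a gamma constant gene, had 53.2, 33.6 and 36.8 FPKM in Ctrl and 114, 138 and 88.4 in DKO (adjusted p = 0.0567). Of 22 tested variable segments of the alpha chain, 9 lay higher in every DKO library and 1 lower, and of 59 alpha joining segments 23 lay higher and none lower. Of 17 variable segments of the beta chain, 8 lay higher and none lower. Summed over the alpha variable segments the level was 17.3, 35.4 and 30.9 FPKM in Ctrl and 111, 75.9 and 143 in DKO. Over the beta variable segments it was 54.0, 83.9 and 93.3 FPKM in Ctrl and 203, 160.1 and 314 in DKO. DKO replicate 3 was highest in both sums, and neither sum overlapped between Ctrl and DKO. In Tcf1KO the sums were 74.4, 103 and 87.2 FPKM for alpha and 144, 239 and 184 for beta, which overlapped the DKO range. Of 14 beta joining segments, 1 lay higher in every DKO library and none lower. These joining segments summed to 775, 748 and 735 FPKM in Ctrl and 602, 1202 and 1012 in DKO, so the groups overlapped. Of the 5 delta variable segments, 1 had a positive log2 change, 2 lay lower in every DKO library and none higher.

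Genes of cell division had lower levels in DKO, and Pbk, Kif22 and Hist2h3c2 fell. Of the 44 tested proliferation genes 43 had a negative log2 change, and for 23 every DKO library was below every Ctrl library. None of the 44 passed the test over all genes. The list median was -0.66, -0.54 without DKO replicate 3 and -0.71 without Ctrl replicate 2. The summed level was 1041, 761 and 645 FPKM in Ctrl and 557, 453 and 350.2 in DKO. The groups did not overlap, and DKO replicate 3 was lowest. Neutrophil and myeloid markers, described below, were also lower in DKO, with summed levels of 2241, 3718 and 937 FPKM in Ctrl and 822, 328 and 539.8 in DKO, and their part in this difference was not tested. Mki67, the gene of the division marker Ki-67, had 235, 160.1 and 123 FPKM in Ctrl and 103, 73.7 and 50.04 in DKO (adjusted p = 0.162). Cdk1, the kinase that starts mitosis, had 3.94, 2.74 and 2.97 FPKM in Ctrl and 1.38, 1.32 and 1.78 in DKO (adjusted p = 0.148). Outside this list, Pbk (chromosome 14, 65805837 to 65817822, plus strand), a mitotic kinase gene, had 7.94, 6.75 and 8.22 FPKM in Ctrl and 3.07, 3.08 and 2.85 in DKO, the DKO mean was 39.3% of the Ctrl mean, and the log2 change was -1.11 (SE 0.15, adjusted p = 0.0298). Kif22 (chromosome 7, 127027729 to 127042471, minus strand), a motor protein gene that moves chromosomes on the spindle, had 10.5, 9.95 and 9.75 FPKM in Ctrl and 3.79, 2.67 and 3.81 in DKO and a log2 change of -1.34 (SE 0.20, adjusted p = 0.0416). Hist2h3c2 (chromosome 3, 96238108 to 96239127, minus strand), a histone H3 gene with near-identical copies and therefore uncertain, had 4.15, 4.81 and 4.18 FPKM in Ctrl and 1.06, 0.689 and 0.139 in DKO (adjusted p = 0.0468). H2afx, the gene of the histone H2A.X that is phosphorylated at DNA breaks, had 180.2, 120.2 and 141 FPKM in Ctrl and 68.5, 75.1 and 65.8 in DKO (adjusted p = 0.0714).

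**Figure D3:**
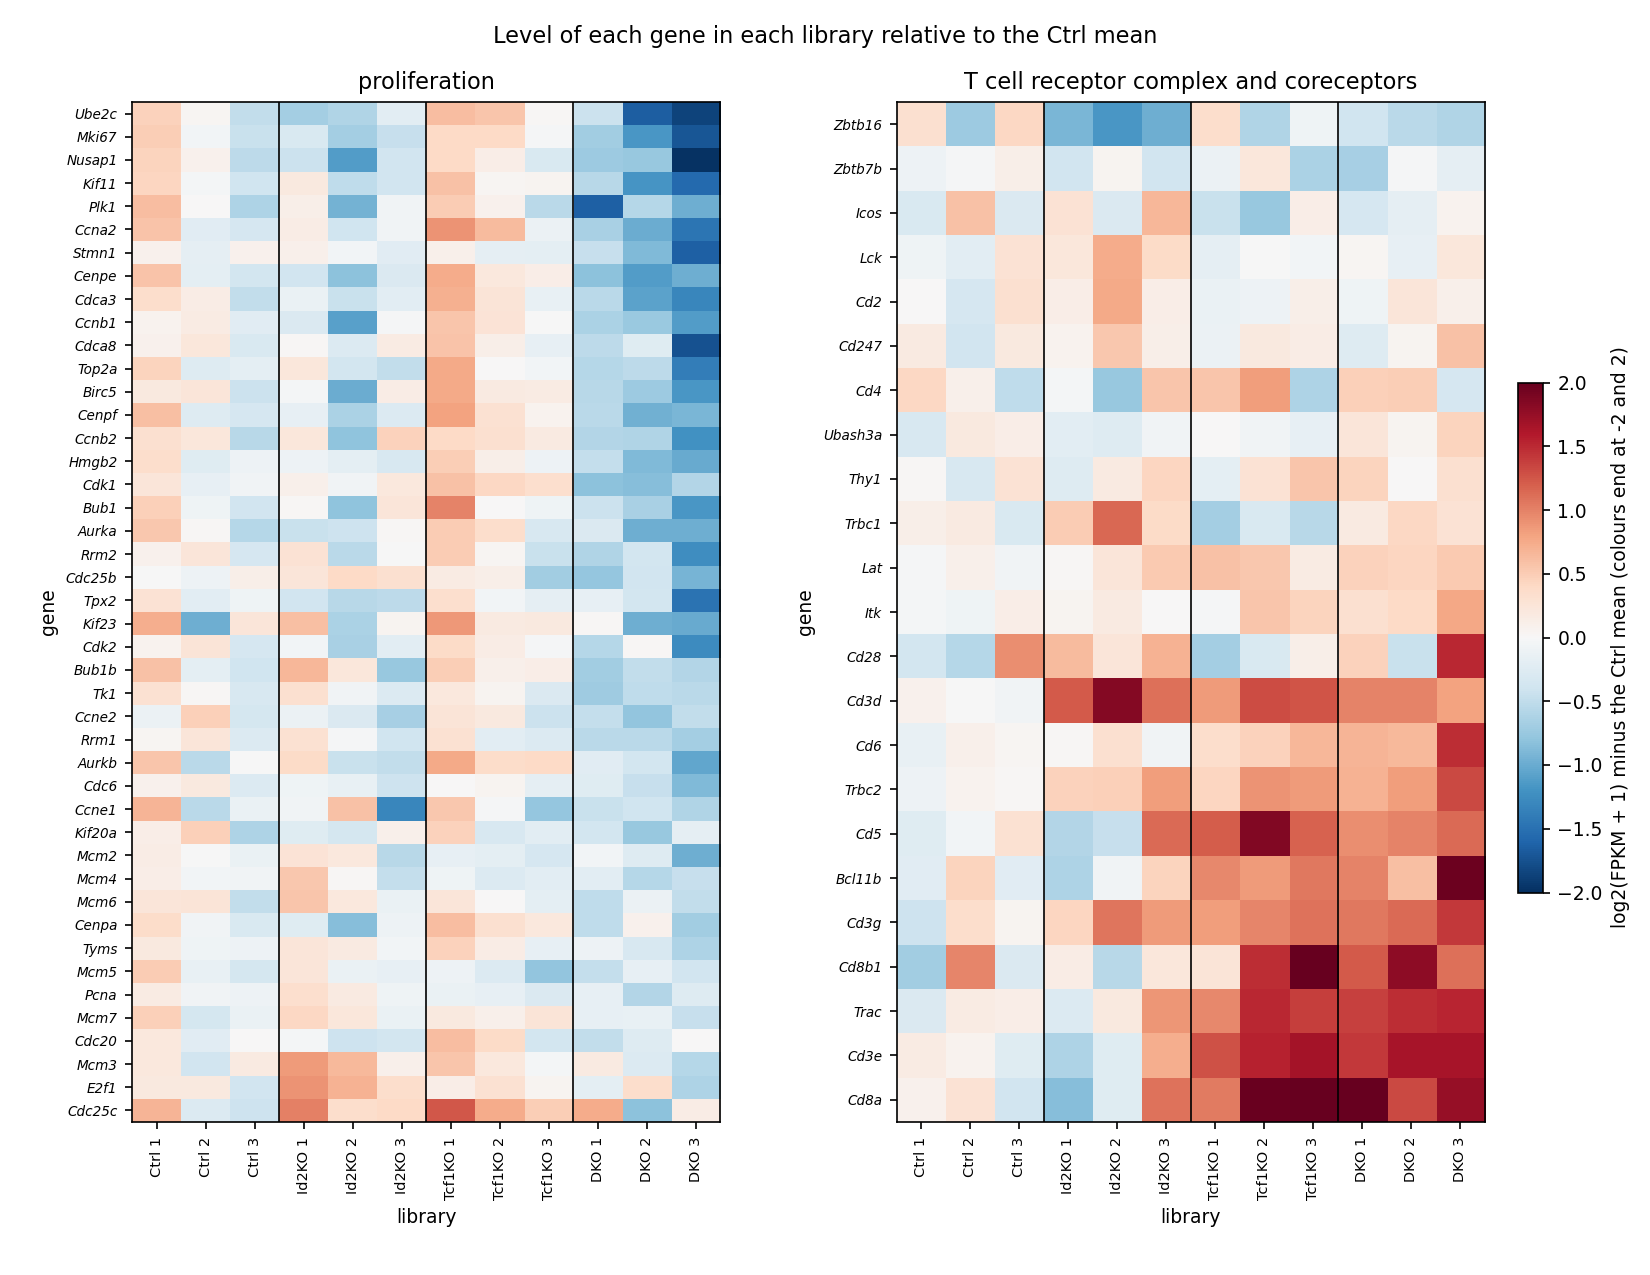
Level of each tested gene (rows) in each library (columns) as log2(FPKM + 1) minus the Ctrl mean, for the proliferation list and for the T cell receptor complex and coreceptors, genes ordered by their change in DKO; colours end at -2 and 2. The DKO columns are blue for most of the 44 proliferation genes, deepest in DKO replicate 3, and red for the lower rows of the T cell panel, where the Tcf1KO columns are red too.

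The remaining changed genes with protein products do not share a list. Vegfc (chromosome 8, 54077606 to 54187096, plus strand), a growth factor for lymphatic vessels, had the largest fall of the 18, from 6.15, 4.80 and 8.32 FPKM in Ctrl to 0.0256, 0.146 and 0.0269 in DKO. The DKO libraries held 1, 6 and 1 reads of it, against 260, 175 and 354 in Ctrl, and the log2 change was -2.77 (SE 0.40, adjusted p = 0.0327). Apobec2 (chromosome 17, 48419231 to 48432930, minus strand), a member of the cytidine deaminase family best known in muscle, had 0.0507, 0.294 and 0 FPKM in Ctrl and 2.36, 2.65 and 2.30 in DKO. These were 1, 5 and 0 reads in Ctrl and 43, 51 and 40 in DKO, and the log2 change was 1.63 (SE 0.20, adjusted p = 0.0253). Cables1 (chromosome 18, 11839220 to 11945630, plus strand), whose product binds cyclin-dependent kinases, had 0.334, 0.344 and 0.359 FPKM in Ctrl and 1.93, 2.02 and 2.61 in DKO and a log2 change of 1.24 (SE 0.20, adjusted p = 0.0468). It was called in none of the 12 leave-one-out fits. Plxnc1 (chromosome 10, 94790866 to 94944835, minus strand), a semaphorin receptor gene, had 13.4, 13.3 and 15.3 FPKM in Ctrl and 5.65, 7.72 and 4.91 in DKO and a log2 change of -1.10 (SE 0.17, adjusted p = 0.0416). Adamts14 (chromosome 10, 61197112 to 61273438, minus strand), a procollagen-processing protease gene, had 35.0, 27.2 and 39.6 FPKM in Ctrl and 10.5, 15.6 and 10.3 in DKO, and the DKO mean was 35.8% of the Ctrl mean (adjusted p = 0.0416). Among genes just outside the threshold, Plscr4, of the phospholipid scramblase family, had 3.84, 4.30 and 3.38 FPKM in Ctrl and 0.955, 1.22 and 1.08 in DKO (adjusted p = 0.0504). Hdac4, a histone deacetylase gene, had 4.24, 3.19 and 3.50 FPKM in Ctrl and 6.86, 8.40 and 7.51 in DKO (adjusted p = 0.0567), and Taf4, a subunit gene of the general factor TFIID, had 6.59, 6.49 and 5.59 FPKM in Ctrl and 3.31, 2.96 and 2.01 in DKO (adjusted p = 0.0713).

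Both of the short RNA genes that rose rest on few reads. n-R5s39 (chromosome 15, 39146380 to 39146487, minus strand), a 5S ribosomal RNA copy with many near-identical relatives, was listed at 0 in the 3 Ctrl libraries and had 14, 7 and 7 reads in DKO. Against the floor of 3 reads in each Ctrl library its DKO mean was at least 3.20-fold higher (adjusted p = 0.0291). Gm23613 (chromosome X, 36776619 to 36776705, plus strand), a predicted small nucleolar RNA, had 1, 1 and 0 reads in Ctrl and 65, 13 and 14 in DKO (adjusted p = 0.0298). DKO replicate 1 held most of these reads, and no Id2KO or Tcf1KO library had any. Neither gene would have passed the filter on low values without the DKO libraries, and the same holds for Tcrg-V3 and Cables1, so a difference was built into their passing.

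**Figure D4:**
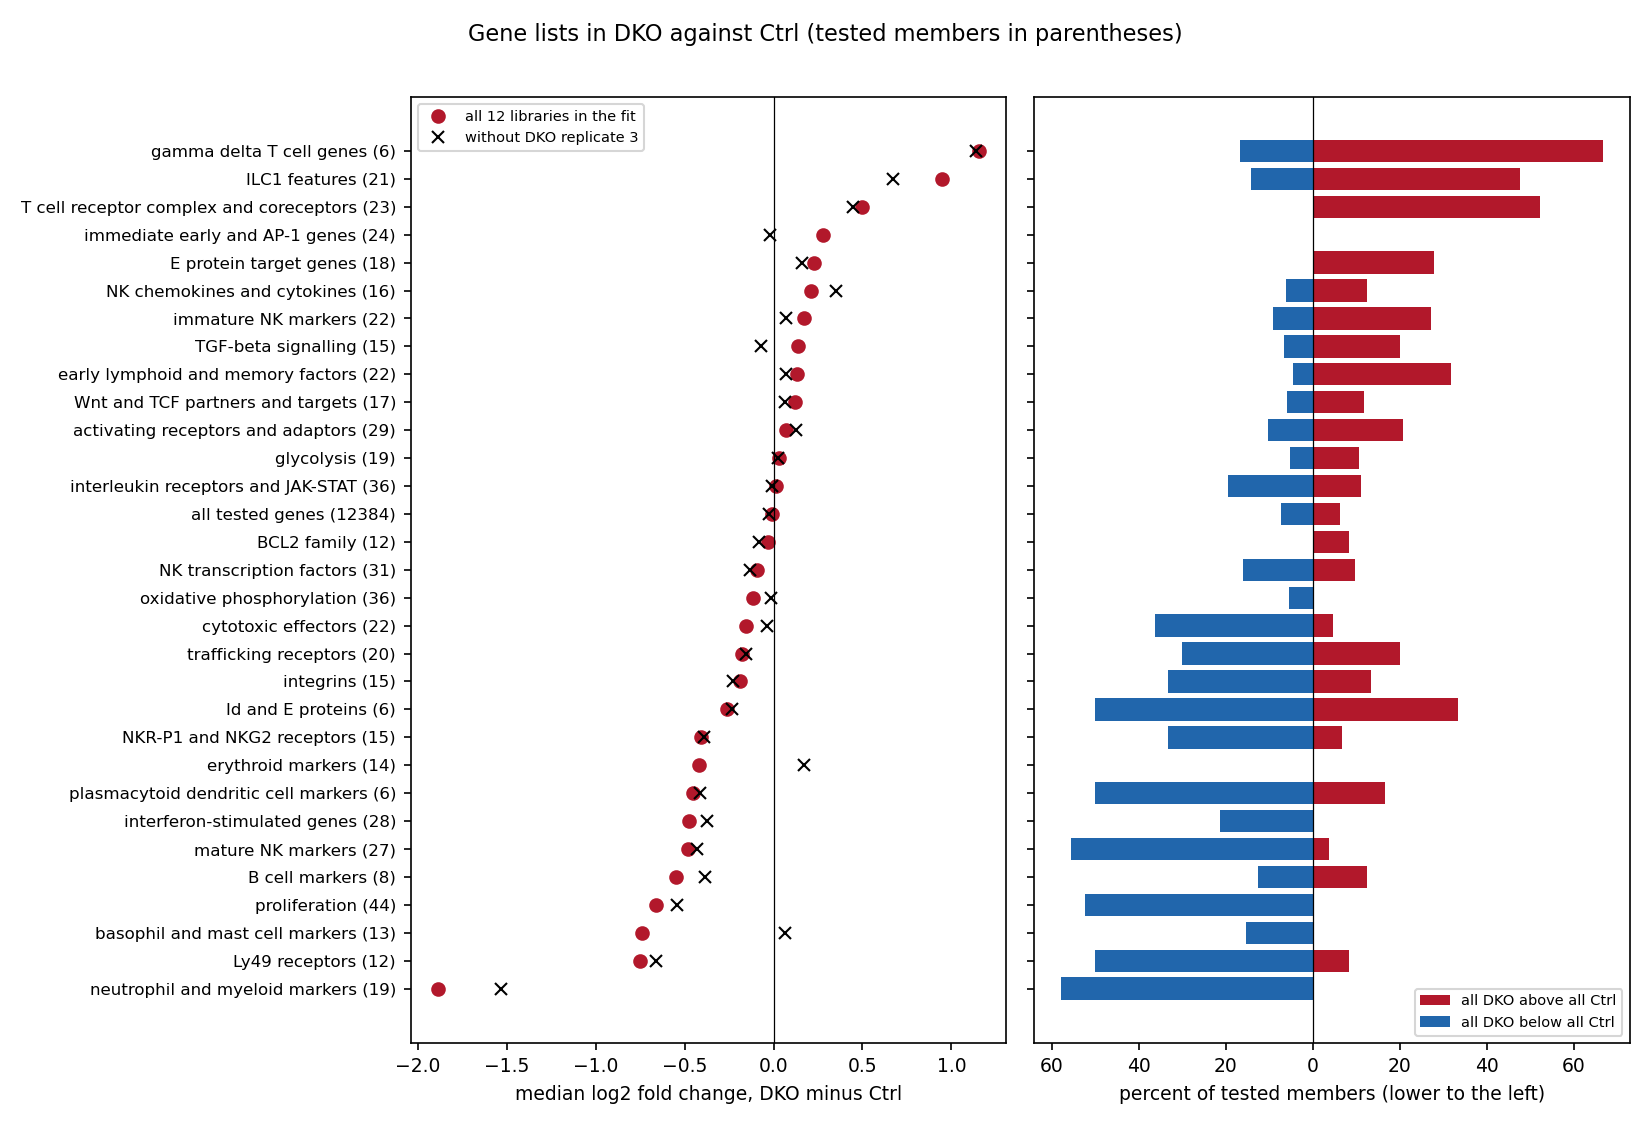
Gene lists in DKO against Ctrl. Left, the median log2 fold change over tested members (circles, all 12 libraries; crosses, without DKO replicate 3); right, the percent of tested members whose DKO libraries all lay above (red, to the right) or below (blue, to the left) all Ctrl libraries. The neutrophil and myeloid list lies lowest with a median of -1.89, and the circles and crosses stand far apart for the erythroid list and for the basophil and mast cell list.

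Markers of other bone marrow cells differed between the groups and within them. Of 19 tested neutrophil and myeloid markers of 20 listed, none was called, all 19 had a negative log2 change, and 11 lay lower in every DKO library. The list median was -1.89, -1.53 without DKO replicate 3. S100a8, a granule gene of neutrophils, had 667, 1680.4 and 295 FPKM in Ctrl and 181, 80.5 and 210.0 in DKO. Erythroid markers summed to 951, 4881 and 785 FPKM in Ctrl and 2767, 1251 and 462 in DKO, with Ctrl replicate 2 and DKO replicate 1 high. Basophil and mast cell markers summed to 663, 451 and 193 FPKM in Ctrl and 618, 111 and 61.9 in DKO. For both lists the groups overlapped and the median changed sign without DKO replicate 3, from -0.42 to 0.17 and from -0.74 to 0.06. The erythroid median was also positive without Ctrl replicate 2, at 0.29. Of 16 B cell markers, 8 were tested and none was called. Their median was -0.55, and 0.021 without Ctrl replicate 1. With a score of the myeloid, erythroid and basophil lists as a term in the fit, an alternative chosen after seeing the data, 7 genes were called, 2 higher and 5 lower. In that fit the proliferation median was -0.53 and the mature NK median -0.46. The neutrophil and myeloid median was still -0.82 there, the erythroid median 0.70 and the basophil and mast cell median 0.16. The term therefore did not remove the differences in the lists it was made from. The part of these cells in the single gene changes was not tested.

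**Figure D5:**
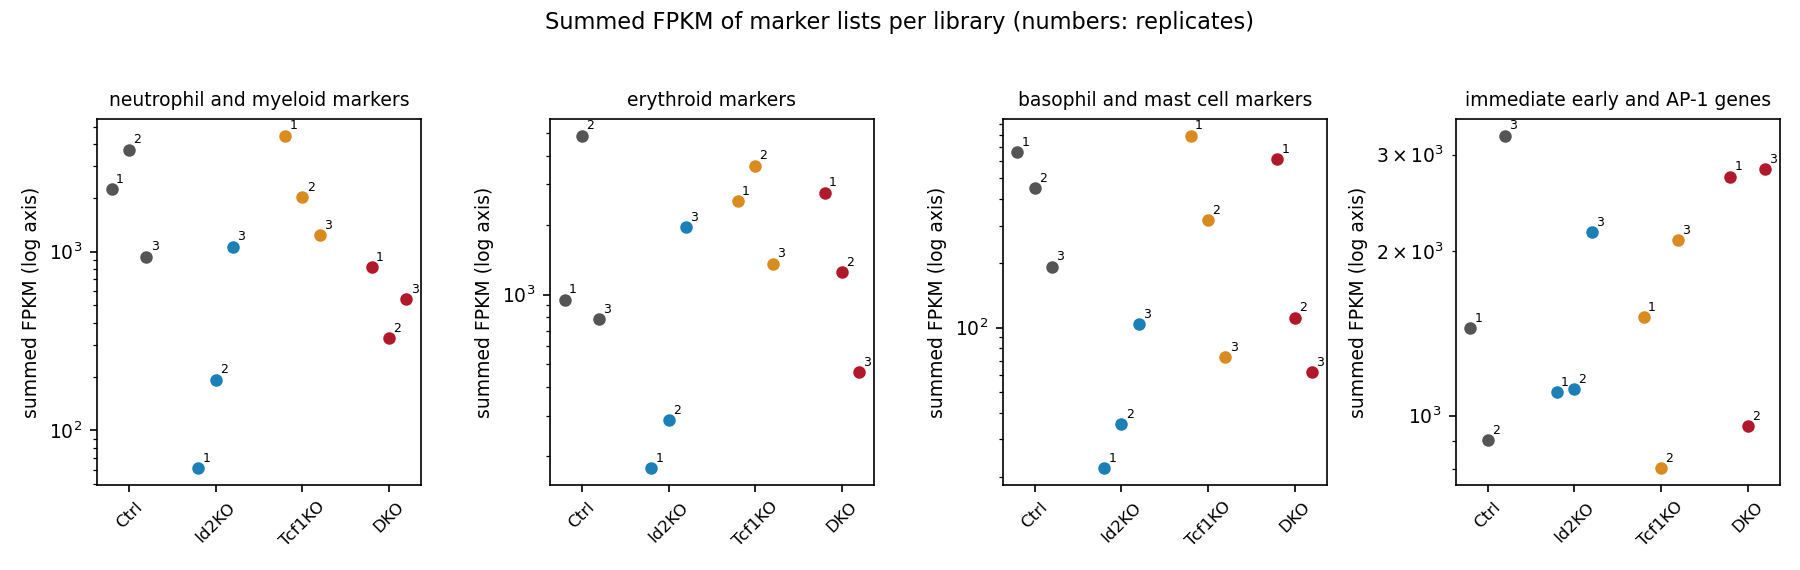
Summed FPKM (log axis) of the neutrophil and myeloid, erythroid, and basophil and mast cell marker lists and of the immediate early genes in each library of the 4 groups, with replicate numbers beside the points. The 3 DKO libraries lie below the 3 Ctrl libraries for the neutrophil and myeloid list, and the groups overlap in the other 3 panels.

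Immediate early and AP-1 genes, which are switched on within minutes of handling or stimulation, summed to 1446, 903 and 3249.6 FPKM in Ctrl and 2735, 955 and 2819.7 in DKO. Ctrl replicate 3, DKO replicate 1 and DKO replicate 3 were high, so the groups overlapped. Of 24 tested members none was called, and the list median of 0.28 became -0.019 without DKO replicate 3 and -0.10 without Ctrl replicate 2. It was 0.14 without Ctrl replicate 1, 0.18 without DKO replicate 1, 0.74 without Ctrl replicate 3 and 0.75 without DKO replicate 2. Of 28 tested interferon-stimulated genes, none was called, 6 lay lower in every DKO library and none higher, with a list median of -0.48. Without Ctrl replicate 2 the median was -0.31, and with the score of myeloid, erythroid and basophil lists as a term in the fit it was -0.28. Isg15, a ubiquitin-like interferon-induced protein gene, had 13.5, 29.3 and 8.92 FPKM in Ctrl and 8.04, 8.46 and 0.742 in DKO (adjusted p = 0.470). Bst2, the gene of the virus-tethering protein tetherin, had 17.9, 39.5 and 12.3 FPKM in Ctrl and 4.11, 6.55 and 1.56 in DKO (adjusted p = 0.121). In both, DKO replicate 3 was lowest.

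DKO was then set directly against each single deletion in the same fit. DKO differed from Id2KO in 15 genes (0.121%) and from Tcf1KO in 7 (0.0565%). Of the 18 genes that changed against Ctrl, 6 also differed from Id2KO, 5 from Tcf1KO, 4 from both and 11 from neither. These comparisons share the DKO libraries. The 4 that differed from both were Id2, Pbk, n-R5s39 and Gm23613. Pbk was at 7.26, 7.79 and 7.04 FPKM in Id2KO and 11.3, 8.47 and 11.4 in Tcf1KO, so all 9 other libraries lay above the 3 DKO libraries. The log2 difference was -1.06 from Id2KO (adjusted p = 0.0284) and -1.50 from Tcf1KO (adjusted p = 0.0109). Cdk1 was also lower than in Tcf1KO, with a log2 difference of -1.20 (adjusted p = 0.0484). Over the proliferation list, 42 of 44 genes were lower in DKO than in Id2KO and 43 lower than in Tcf1KO. The list's medians were -0.55 and -0.82, beside -0.00347 and -0.00646 over all tested genes. Plxnc1 differed from Id2KO, where it was at 16.3, 20.1 and 16.4 FPKM, with a log2 difference of -1.40 (adjusted p = 0.0106). Its difference from Tcf1KO was -0.86, which did not pass the test (adjusted p = 0.203).

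Klrg1 and Itga1 separated DKO from different single deletions. Klrg1 was at 30.2, 43.2 and 33.6 FPKM in Tcf1KO, and DKO was lower, with a log2 difference of -2.66 (adjusted p = 0.0109). In Id2KO it was at 2.88, 2.04 and 0.650 FPKM, below all DKO values, and the difference of 1.09 did not pass the test (adjusted p = 0.202). S1pr5 was at 1.41, 0.395 and 0.322 FPKM in Id2KO and 7.40, 8.20 and 11.95 in Tcf1KO, and DKO differed from neither by the test (adjusted p = 0.361 and 0.251). Itga1 was at 1.04, 0.983 and 1.02 FPKM in Id2KO and 6.67, 5.30 and 6.88 in Tcf1KO. DKO was higher than Id2KO by 1.99 (adjusted p = 0.00690), and its difference from Tcf1KO was 0.14 (adjusted p = 0.946). Apobec2, at 1.75, 1.94 and 1.54 FPKM in Tcf1KO and 0.289, 0.116 and 0.377 in Id2KO, was likewise higher than in Id2KO, by 1.45 (adjusted p = 0.0226). Vegfc was at 0.164, 0.206 and 1.93 FPKM in Tcf1KO and 8.79, 3.57 and 3.55 in Id2KO, and its difference from Id2KO just missed the threshold at -2.47 (adjusted p = 0.0524). Id3 and Nsg2 were highest in Id2KO, at 11.7, 25.8 and 16.0 and 32.4, 38.5 and 29.2 FPKM, and DKO differed from Id2KO in neither by the test (adjusted p = 0.609 and 0.199). Cd3e was at 320.3, 386 and 419 FPKM in Tcf1KO, which overlapped the DKO range, and at 85.8, 111 and 218 in Id2KO, with adjusted p of 0.981 and 0.0891.

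A further group of genes differed between DKO and Id2KO but not between DKO and Ctrl by the test. Fgl2, a fibrinogen-like gene of cytotoxic lymphocytes, was at 36.6, 37.4 and 42.8 FPKM in Ctrl, 49.97, 73.4 and 53.9 in DKO and 10.7, 6.83 and 8.75 in Id2KO. DKO was higher than Id2KO by 2.62 (adjusted p = 0.00361), with an adjusted p of 0.489 against Ctrl. Klrb1b, the gene of the inhibitory receptor NKR-P1B, was at 26.0, 35.6 and 38.7 FPKM in Ctrl, 21.7, 27.3 and 21.6 in DKO and 6.25, 5.07 and 2.58 in Id2KO, and DKO was higher than Id2KO by 2.18 (adjusted p = 0.0121). Itgam was at 1.14, 1.65 and 1.004 FPKM in Id2KO, lower than in DKO by a log2 difference of 1.28 (adjusted p = 0.0311). Sult5a1, a sulfotransferase gene, went the other way. It was at 4.02, 6.47 and 3.59 FPKM in Id2KO against 0.126, 0 and 0 in DKO, a difference of -2.42 (adjusted p = 0.00402). Sult5a1 passed the filter on low values only through the 3 Id2KO libraries, the group where it was high, so a difference was built into its passing. Fgl2, Klrb1b and Sult5a1 were chosen after their values were seen.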

How the data were processed

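RNA from sorted NK cells was measured by sequencing in 12 libraries, of which 3 DKO and 3 Ctrl libraries are compared here. The authors deposited FPKM values per gene, and per the submitters' processing notes reads were handled with TopHat2 2.1.0, HTSeq 0.6.1, Trimmomatic 0.33 and edgeR (no version given) on mm10. Strand handling was not given in the sources used here. Values of all 37991 genes were used as deposited. In the 23707 genes above 0 the values step by a constant amount per read, and whole reads could be recovered for 100% of these genes with a tolerance of at most 0.05 reads. Read numbers and the voom alternative use them. Gene positions came from GENCODE M21 on GRCm38, matched for 32938 gene IDs, and promoter windows from RefSeq tables on GRCm38.p6.

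Genes reaching 1 FPKM in 3 or more libraries were fitted with limma 3.58.1 in R 4.3.3 on log2(FPKM + 1), with group as the term over all 12 libraries and a trended variance prior. Moderated p-values are two-sided and were adjusted by Benjamini-Hochberg across the 12384 genes. Fold changes on this scale understate the change of genes with low values. With 3 libraries against 3 an exact permutation test of a single gene cannot reach 0.05. No test was made over a gene list: the 30 lists are described by counts and medians beside those of all tested genes. The procedure was also run on simulated data with independent normal noise and the same spread in every library. That simulation held no outlying library and no mixture of cells, so it does not bear on how the calls depend on single libraries. Python 3.11.15 with numpy 2.4.6, pandas 2.3.3 and matplotlib 3.10.9 was used for tables and plots.

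The comparison, the lists and the tests were chosen with earlier results of these data known. Genes were named by rule: Id, E protein and targeted genes, Klrg1, S1pr5, Itga1 and Cd3e, every changed gene, the 6 nearest to the threshold in each direction, the 5 tested members of a list that had its lowest p, and Ncr1 and defining genes of other cells. Klrb1c, Klrd1 and the other sorting or lineage markers were named as checks, and genes below the filter as checks of other cells. Alternatives varied the pseudocount, filter, scaling, variance prior, weights, replicate block, libraries fitted, threshold and values, and left out each library in turn.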

Additional observations from a re-analysis of the deposited data

How the results depend on the processing

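Of the 18 genes called in DKO against Ctrl, 7 higher and 11 lower, the number and not the direction depended on the processing. The counts stayed within 1.5 times of these under a pseudocount of 0.5, median scaling, quantile normalization and a robust variance. A pseudocount of 0.1 left 3 higher, a filter at 5 FPKM 4 higher, array weights 4 higher and voom on recovered reads 4 higher. Without a variance trend 11 were higher. Without a filter 4 genes were called, 1 higher and 3 lower. A fit of Ctrl and DKO alone called 1 gene, higher in DKO and not among the 18, and 0 lower. At a threshold of 0.01, 1 gene was called, 0 higher and 1 lower. Leaving out each of the 12 libraries in turn gave 1 to 27 calls, 0 to 12 higher and 1 to 15 lower. The count was 1 without DKO replicate 3, Ctrl replicate 1 or Ctrl replicate 2, 3 without Ctrl replicate 3 or Tcf1KO replicate 2, 5 without DKO replicate 1, 10 without Tcf1KO replicate 3, 11 without DKO replicate 2, 12 without Id2KO replicate 1 or Tcf1KO replicate 1, and 27 without Id2KO replicate 3. Among alternatives chosen after seeing the data, an other-cell score as a term called 7 genes, 2 higher and 5 lower. A fit without the 3 libraries of lowest weight (Id2KO replicate 3, DKO replicate 3 and Ctrl replicate 2) called 0 genes, 0 higher and 0 lower, with 1046 at an unadjusted p under 0.05 in limma. The cause of these differences was not tested, except that fewer libraries enter the fits that leave some out. With the replicate block 19 genes were called, 9 higher and 10 lower, and 12 of them were among the 18. The others of the 18, Plxnc1, Adamts14, S1pr5, Tcrg-V3, Hist2h3c2 and Cables1, had limma adjusted p of 0.0534 to 0.0727 with the block, while Trac, Cd3g and Bst2 were called with it (adjusted p of 0.0393, 0.0393 and 0.0223). Deviations from the group means of same-numbered Ctrl and DKO libraries correlated at -0.0046, 0.110 and 0.196. Replicates 2 and 3 of Ctrl each correlated best with the same number in DKO. Replicate 1 of Ctrl correlated best with replicate 3 of DKO, at 0.0071. These values do not settle whether the replicate numbers pair the groups. Of the genes named, Cd4, which was not called, changed sign in one setting: its log2 change was -0.047 without Ctrl replicate 3, and its leave-one-out fits reached 0.48. Depth limits the genes with few reads, Apobec2, Tcrg-V3, n-R5s39 and Gm23613, whose read numbers stand beside their values.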

Other observations

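Several gene groups outside the main results were described by the same fit, and S1pr5, a trafficking receptor described with the mature NK markers, was the one member called. Over all tested genes, 6.28% lay higher in every DKO library and 7.27% lower. Several list counts given here lie near these shares, and none was tested against them. Of 36 tested interleukin receptor and JAK-STAT genes, 4 lay higher in every DKO library and 7 lower, with a median log2 change of 0.013 that ranged from -0.054 to 0.078 when each Ctrl or DKO library was left out. Il4ra, the interleukin-4 receptor gene, had 6.93, 8.16 and 11.9 FPKM in Ctrl and 15.5, 19.0 and 22.5 in DKO (limma adjusted p = 0.147). Il12rb2, a subunit gene of the interleukin-12 receptor that drives interferon gamma production, had 37.8, 47.7 and 45.9 FPKM in Ctrl and 23.9, 32.8 and 32.3 in DKO (adjusted p = 0.295). Il10, the gene of an inhibitory cytokine, had 0.3297, 0 and 0.328 FPKM in Ctrl and 2.14, 1.55 and 1.93 in DKO (adjusted p = 0.208). Of 15 tested TGF-beta signalling genes, 3 lay higher and 1 lower in every DKO library. Tgfbr1, a receptor gene of this pathway, had 3.62, 3.20 and 3.90 FPKM in Ctrl and 6.01, 7.43 and 7.81 in DKO (adjusted p = 0.294). The list's median of 0.14 became -0.068 without DKO replicate 3, 0.026 without Ctrl replicate 1, 0.055 without Ctrl replicate 2 and 0.27 without Ctrl replicate 3.

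Of 12 tested genes of the BCL2 family, which control survival, 1 lay higher in every DKO library and none lower. That gene was Bcl2, with 57.4, 58.3 and 65.4 FPKM in Ctrl and 74.3, 84.8 and 101 in DKO (adjusted p = 0.529). Of 36 tested respiratory chain genes, none lay higher and 2 lower in every DKO library, with a median of -0.11. Over all tested genes 6.28% lay higher and 7.27% lower, and the respiratory chain, BCL2 and glycolysis counts are near these shares. That median was -0.012 without DKO replicate 3, -0.046 without Ctrl replicate 2, -0.055 without DKO replicate 1 and -0.17 without Ctrl replicate 1. Of 19 tested glycolysis genes, 2 lay higher and 1 lower, with a median of 0.032 (0.011 to 0.059 with each Ctrl or DKO library left out). Pdk1, the gene of a kinase that holds back entry of pyruvate into mitochondria, had 2.11, 1.94 and 2.67 FPKM in Ctrl and 4.63, 5.02 and 4.48 in DKO (adjusted p = 0.132). Of 15 tested integrin genes, 2 lay higher, one of them Itga1, and 5 lower in every DKO library. Itgal, the alpha chain gene of LFA-1, had 46.5, 41.3 and 46.9 FPKM in Ctrl and 29.3, 32.8 and 29.3 in DKO (adjusted p = 0.140). Of 20 tested trafficking receptors, 4 lay higher and 6 lower, S1pr5 among the latter. Ccr2, a chemokine receptor gene, had 47.1, 47.9 and 43.1 FPKM in Ctrl and 18.2, 37.1 and 18.7 in DKO (adjusted p = 0.328).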
